A study of Homo sapiens with 6 samples.

Results

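Notch genes were examined in the human colon cancer line HCT-8 on 6 single-colour Affymetrix arrays. The set was defined by name as the ligands DLL1, DLL4, JAG1 and JAG2, the receptors NOTCH1, NOTCH2 and NOTCH3, the DNA-binding factor RBPJ and the target genes HES1 and HEY2, as far as each had a feature (a probe set) in the array annotation. This held for 9 of the 10 genes, out of 14884 genes tested, with 1 feature each. Expression of HES1 was not analysed here. The genes were chosen with their differences between the groups known, so these differences are given as a description and carry no test. DLL1, HEY2 and RBPJ stood out because they lay under an adjusted p of 0.05 in a moderated test by limma, adjusted by the Benjamini-Hochberg method. The gene just inside this limit was RBPJ (limma adjusted p = 0.0326), and the gene just outside it was NOTCH2 (limma adjusted p = 0.0528). These values come from the fit of all arrays. Adjusted p-values of DLL1, HEY2 and RBPJ in the other settings described below were not analysed here, and RBPJ did not stay under the limit in all of them.

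The cells of all arrays had been transfected with an shRNA plasmid and kept in hygromycin for 14 days from 24 hours after transfection, and were used after a few further passages as uncloned pools. A group of 3 arrays was labelled TRIB3-shRNA, a short hairpin RNA against the pseudokinase gene TRIB3, and a group of 3 was labelled Control-shRNA. Both groups were numbered 1 to 3, and the labels do not say whether the numbers stand for separate cultures, so a p-value here reflects only how far these arrays spread, which may be technical. All values are log2 RMA signals, and differences are those of the arrays labelled TRIB3-shRNA minus those labelled Control-shRNA. TRIB3 itself went against the labels: it read 8.43, 8.48 and 8.27 where the label is TRIB3-shRNA and 7.37, 7.14 and 7.48 where it is Control-shRNA, with a difference of 1.07 (limma adjusted p = 0.0041), so every direction rests on labels that the targeted gene does not bear out. The array number limits the precision. Of the 10 colon epithelial markers examined, 8 had a feature and all 8 lay above the median level of all genes, with EPCAM at 10.7 to 11.1. Among the measured fibroblast, endothelial and immune markers, 0 of 9 passed the limma test, and 1, the endothelial gene ESAM, had an unadjusted p under 0.05. In limma 4283 of all 14884 genes had an unadjusted p under 0.05. Of these 9, ESAM and the macrophage gene CD68 also lay above the median level, and the other 7 below it.

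Notch signalling passes between neighbouring cells. A Delta or Jagged ligand on a cell binds a Notch receptor on its neighbour, the receptor is cut first by an ADAM protease and then by gamma-secretase, and the freed intracellular part enters the nucleus. There it joins RBPJ, which otherwise sits on DNA with corepressors, and with a Mastermind coactivator it turns on HES and HEY repressor genes. In the intestine, active Notch keeps progenitors from the secretory fate by repressing ATOH1, and cells that express DLL1 present the signal to their neighbours.

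RBPJ recognises a core of 6 bases, TGGGAA, and the windows of the chosen genes that hold it are shown because they show where letters of this kind stand next to the starts of HEY2, RBPJ and the textbook target HES1. Each run is the 250 bases before a RefSeq start, 5′ to 3′ on the strand of the gene, with TGGGAA or its reverse complement in capitals, from RefSeq on GRCh38.p14. The RBPJ window is chr4:26319496-26319745 on the plus strand, the HEY2 window is chr6:125749382-125749631 on the plus strand, and the HES1 window is chr3:194135898-194136147 on the plus strand.
HES1: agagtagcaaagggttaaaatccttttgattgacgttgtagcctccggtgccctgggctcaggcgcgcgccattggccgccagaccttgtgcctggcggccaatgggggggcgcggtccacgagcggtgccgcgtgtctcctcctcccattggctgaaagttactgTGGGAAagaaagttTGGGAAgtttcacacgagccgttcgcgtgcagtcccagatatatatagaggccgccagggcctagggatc
HEY2: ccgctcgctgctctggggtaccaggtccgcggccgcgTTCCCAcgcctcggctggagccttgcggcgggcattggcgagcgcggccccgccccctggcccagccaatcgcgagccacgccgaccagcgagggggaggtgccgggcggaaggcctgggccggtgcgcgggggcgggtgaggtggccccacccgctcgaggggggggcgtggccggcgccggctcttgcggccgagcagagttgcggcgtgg
RBPJ: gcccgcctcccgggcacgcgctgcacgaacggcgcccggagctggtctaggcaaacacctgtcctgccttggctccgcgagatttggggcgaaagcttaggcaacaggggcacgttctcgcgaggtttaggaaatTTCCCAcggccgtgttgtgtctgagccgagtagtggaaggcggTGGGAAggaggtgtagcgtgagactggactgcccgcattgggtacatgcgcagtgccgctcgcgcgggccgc

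The HES1 window held the core 2 times on the same strand, beginning 84 and 70 bases before the start. The HEY2 window held it 1 time, on the other strand, 213 bases before the start, and the annotated antisense RNA gene HEY2-AS1 reaches into this window. RBPJ had 5 starts in the table, and 1 of them held the core, 115 bases before the start on the other strand and 72 bases before it on the strand of the gene. The single windows of DLL4, JAG1, JAG2, NOTCH1, NOTCH2 and NOTCH3 did not hold these letters, and DLL1 had no window in the table. Both strands were searched, no other motif was, and 20.8% of all 35116 windows of this length held the core at least 1 time and 2.9% at least 2 times. A match is a description of the letters and not of binding.

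DLL1 had the largest difference of the 9 genes. It encodes the Delta-like ligand that intestinal secretory cells present. DLL1 signal was 6.63, 6.56 and 6.59 on the arrays labelled TRIB3-shRNA, against 5.33, 4.95 and 5.22 on the control arrays. The arrays labelled TRIB3-shRNA lay within 0.1 of each other and all above the control arrays, and the nearest arrays of the groups were 1.23 apart. The group means were 6.596 ± 0.04 (SD, n = 3) and 5.17 ± 0.19 (SD, n = 3), a difference of 1.43 (SE 0.14) or 2.69-fold. In size this difference exceeded that of 99.5% of all genes tested.

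The other chosen ligands differed by far less. JAG1, a Jagged ligand, read 11.02 to 11.15 on the arrays labelled TRIB3-shRNA, against 11.14 to 11.29 on the control arrays, and the groups overlapped. The JAG1 difference was -0.15 (SE 0.12). JAG2, its relative, read 7.82 to 8.05 against 7.60 to 7.92, with overlap and a difference of 0.23 (SE 0.14). DLL4, a Delta-like ligand best known from vessels, read 4.99 to 5.23 against 4.90 to 5.08, also with overlap and a difference of 0.13 (SE 0.13). The highest TRIB3-shRNA value of JAG2 was in the array numbered 1, and its highest control value in the array numbered 3.

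The receptors pointed in different directions. NOTCH1 signal was 8.396, 8.32 and 8.26 on the arrays labelled TRIB3-shRNA, against 7.66, 7.91 and 8.13 on the control arrays. The groups did not overlap, but Control-shRNA replicate 3 lay only 0.13 below the lowest array labelled TRIB3-shRNA. The means were 8.33 ± 0.07 (SD, n = 3) and 7.90 ± 0.23 (SD, n = 3), a difference of 0.43 (SE 0.15). NOTCH2 signal was 7.69, 7.81 and 7.87 on the arrays labelled TRIB3-shRNA, against 8.18, 8.22 and 8.30 on the control arrays. Here the arrays labelled TRIB3-shRNA were the lower ones, again without overlap and with a gap of 0.31. The NOTCH2 means were 7.79 ± 0.09 (SD, n = 3) and 8.23 ± 0.06 (SD, n = 3), a difference of -0.44 (SE 0.12). NOTCH2 has 4 near-copies in RefSeq, the NOTCH2NL genes, and whether the feature also reads them was not tested. NOTCH3 read 5.60 to 6.22 against 5.84 to 6.22, with full overlap and a difference of -0.17 (SE 0.19).

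RBPJ, the factor through which all 4 receptors act on DNA, was lower in the arrays labelled TRIB3-shRNA. Its signal was 5.29, 5.52 and 5.86 on these, against 6.46, 6.43 and 6.08 on the control arrays. The groups did not overlap, but the arrays numbered 3 lay closest to the other group on both sides and only 0.22 apart. The means were 5.55 ± 0.29 (SD, n = 3) and 6.33 ± 0.21 (SD, n = 3), a difference of -0.77 (SE 0.18), or 1.71-fold lower. With both arrays numbered 3 left out the difference was -1.05. RefSeq lists 4 RBPJ pseudogenes, and whether the feature also reads them was not tested.

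HEY2, a HES-related repressor that Notch induces, was higher. Its signal was 6.91, 7.01 and 6.93 on the arrays labelled TRIB3-shRNA, against 6.39, 5.97 and 6.17 on the control arrays. The arrays labelled TRIB3-shRNA again lay close together and all above the control arrays, with a gap of 0.52. The means were 6.95 ± 0.05 (SD, n = 3) and 6.18 ± 0.21 (SD, n = 3), a difference of 0.77 (SE 0.14), or 1.71-fold. HEY2 and RBPJ thus differed by the same amount in opposite directions, each exceeding about 93.5% (HEY2) and 93.4% (RBPJ) of all genes in size. Different features have different probe responses, so the levels of the 9 genes were not set against each other, and a place among all genes is given only to mark dim features. Fewer cells expressing a gene and less RNA per cell cannot be told apart in bulk RNA.

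**Figure D1:**
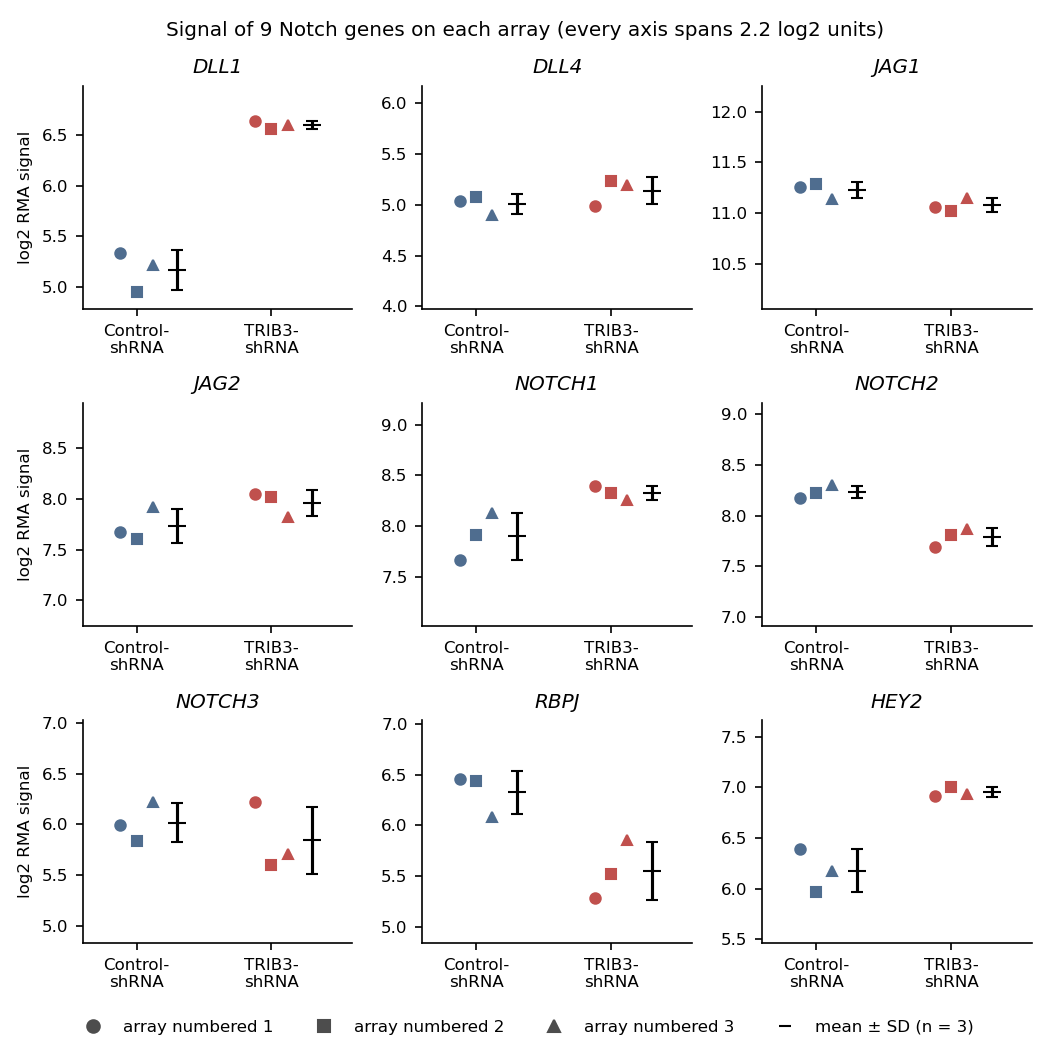
Log2 RMA signal (vertical axis, 2.2 log2 units in every panel) of the 9 Notch genes in the Control-shRNA (blue) and TRIB3-shRNA (red) arrays, with 1 point per array, its shape giving the array number, and the group mean ± SD in black. DLL1 and HEY2 are higher in all 3 arrays labelled TRIB3-shRNA, NOTCH2 and RBPJ are lower, and the triangles of RBPJ, the arrays numbered 3, lie 0.22 apart.

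Of the 9 genes, 3 were called, 2 higher and 1 lower, and 5 had groups without overlap. Over all genes 9.64% were called, 3.25% higher and 6.39% lower, and 32.0% had groups without overlap; since the genes were chosen on this contrast, nothing is read from these counts. In numbers, 484 genes were called higher and 951 lower, and with each array centred on its 75th percentile 853 higher and 825 lower. That centring moved the median difference of all genes from 0.04 to 0.14. The median of the 9 genes was 0.13. Under this centring DLL1 differed by 1.53, HEY2 by 0.88 and RBPJ by -0.67, so no direction turned.

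The differences of the chosen genes were compared across 19 other settings. Some change only the test, such as the filters or robust fitting, and cannot move the difference of a gene with 1 feature. The difference of DLL1 ran from 1.32 to 1.53, that of HEY2 from 0.67 to 0.88 and that of RBPJ from -1.05 to -0.64. NOTCH1 ran from 0.31 to 0.58 and NOTCH2 from -0.48 to -0.30. The sign of each of these 5 genes was the same in every setting run. Their adjusted p-values in these settings were not analysed here.

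**Figure D2:**
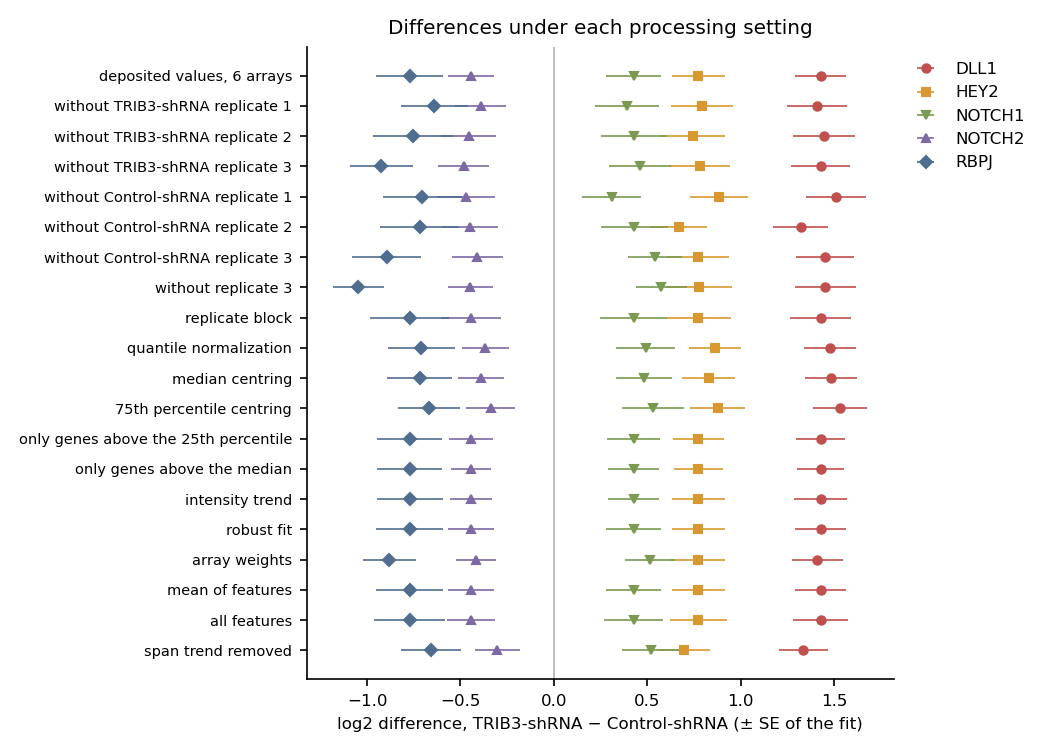
Log2 difference, TRIB3-shRNA minus Control-shRNA (horizontal axis), of DLL1, HEY2, NOTCH1, NOTCH2 and RBPJ under the deposited values and 19 other settings (vertical axis), with the SE of each fit as a bar. DLL1 stays between 1.32 and 1.53, and RBPJ lies farthest from 0, at -1.05, when both arrays numbered 3 are left out.

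The rest of the pathway was described through 6 lists by role, which hold 55 measured genes beside the chosen ones. In these 55 genes limma called 1 rise and 2 falls at an adjusted p under 0.05, and 52 missed it, so that 5.45% were called against 9.64% of all genes. The gene that rose was FURIN, which cuts Notch receptors on their way to the surface, and those that fell were KAT2B and MAML2, coactivators of the Notch complex. The median difference of the 55 genes was 0.04, as over all genes. The count was 0 without TRIB3-shRNA replicate 1 or 2 or Control-shRNA replicate 1 or 2, where 6, 8, 7 and 4 genes had an unadjusted limma p under 0.05. It was 9 without TRIB3-shRNA replicate 3, 16 without both arrays numbered 3, and 3 with all arrays, where 14 genes had an unadjusted p under 0.05. Of all 14884 genes, 4283 had an unadjusted p under 0.05 with all arrays. Without TRIB3-shRNA replicate 1 or 2 or Control-shRNA replicate 1 or 2, these were 3242, 3284, 2904 and 2961.

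Among the 8 measured ligands and ligand-like genes, 0 of the 4 that had not been chosen passed the limma test, and 1 had an unadjusted p under 0.05. The atypical ligand gene DLK1 differed by 0.34 (adjusted p = 0.126 in limma), with groups that did not overlap, and DNER, a dim feature at the 18.6 percentile of mean signal, by 0.24, DLL3 by 0.07 and DLK2 by 0.04. The remaining receptor, NOTCH4, known from endothelium, differed by 0.26 (limma adjusted p = 0.217), also with groups that did not overlap. Of the 13 measured processing and glycosylation enzymes only FURIN passed the test. FURIN signal was 7.91, 7.81 and 7.51 on the arrays labelled TRIB3-shRNA, against 7.03, 6.91 and 7.28 on the control arrays. The groups did not overlap, with the arrays numbered 3 closest to each other. The difference was 0.67 (SE 0.16, limma adjusted p = 0.0335). The call was lost in 6 of 19 settings, without replicate 1 or 2 of either group among them (adjusted p up to 0.143).

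ADAM10, the protease of the first activating cut, is named after its value was seen. It read 7.57, 8.05 and 8.52 on the arrays labelled TRIB3-shRNA, against 8.93, 8.996 and 8.45 on the control arrays. The groups overlapped only through the arrays numbered 3, and the difference of -0.75 (SE 0.25) did not pass the test (limma adjusted p = 0.086). Of the 15 endocytic and ubiquitin regulators 0 passed it, and 6 had an unadjusted p under 0.05, as did 4283 of all 14884 genes. The smallest adjusted p-values were those of DTX4, a Deltex ubiquitin ligase (0.44, limma adjusted p = 0.0688), and MIB2, a ligase that acts on ligands (0.39, limma adjusted p = 0.097). MIB1, the better known ligase of ligand endocytosis, differed by -0.63 (limma adjusted p = 0.0974) and is also named after its value was seen.

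Of the 15 measured nuclear cofactors beside RBPJ, 2 fell and 0 rose, where 6.39% of all genes were called lower and 3.25% higher. The share of all genes called lower rose with their span on the genome. It was 2.47% under 10 kb, 3.70% from 10 to 30 kb, 10.5% from 30 to 100 kb, 13.3% from 100 to 300 kb and 10.7% above 300 kb. The cofactor list, RBPJ included, had a median span of 98.4 kb. The median of this list, RBPJ included, was -0.22, and -0.11 with each array centred on its 75th percentile. Since RBPJ was chosen with its value known, nothing is read from this median. KAT2B, an acetyltransferase, read 5.86, 6.28 and 6.62 on the arrays labelled TRIB3-shRNA, against 7.13, 7.22 and 6.92 on the control arrays. As for RBPJ, the groups did not overlap and the arrays numbered 3 were the nearest pair. KAT2B fell by 0.83 on the log2 scale (SE 0.20, limma adjusted p = 0.0335), with its call lost in 6 of 19 settings, without replicate 1 or 2 of either group among them (adjusted p up to 0.137). MAML2, a Mastermind coactivator, read 3.74, 3.64 and 4.10 against 4.33, 4.37 and 4.598. It fell by 0.61 on the log2 scale (SE 0.16, limma adjusted p = 0.0454), but its call was lost in 11 of 17 settings, without any array other than TRIB3-shRNA replicate 3 and with either centring among them (adjusted p up to 0.344). Its second feature differed by 0.16, and the TRIB3-shRNA mean of 3.82 was under every array's 25th percentile (4.26 to 4.36). MAML1 (0.10) and MAML3 (0.17) did not share its sign, and these were named after their values were seen.

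The 8 measured direct targets, HEY2 included, had a median of 0.20, from which nothing is read, since HEY2 was chosen with its value known. Beside HEY2, 0 of the 7 others passed the limma test, and 0 had an unadjusted p under 0.05. HES7 differed by 0.34 and HES5 by 0.30, both with groups that did not overlap, as for 32.0% of all genes. HEY1 differed by 0.20, NRARP, a feedback inhibitor of Notch, by 0.20 and HES4 by 0.09. HEYL (-0.10) and OLFM4 (-0.23), the latter a Notch-dependent gene of intestinal stem cells, were on the other side of 0. The limma adjusted p-values of these 7 genes ran from 0.186 (HES7) to 0.704 (HEYL). HEY1 and OLFM4 lay below the 25th percentile of all genes in mean signal, at the 11.2 and the 20.0 percentile, so their values say little about a difference.

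**Figure D3:**
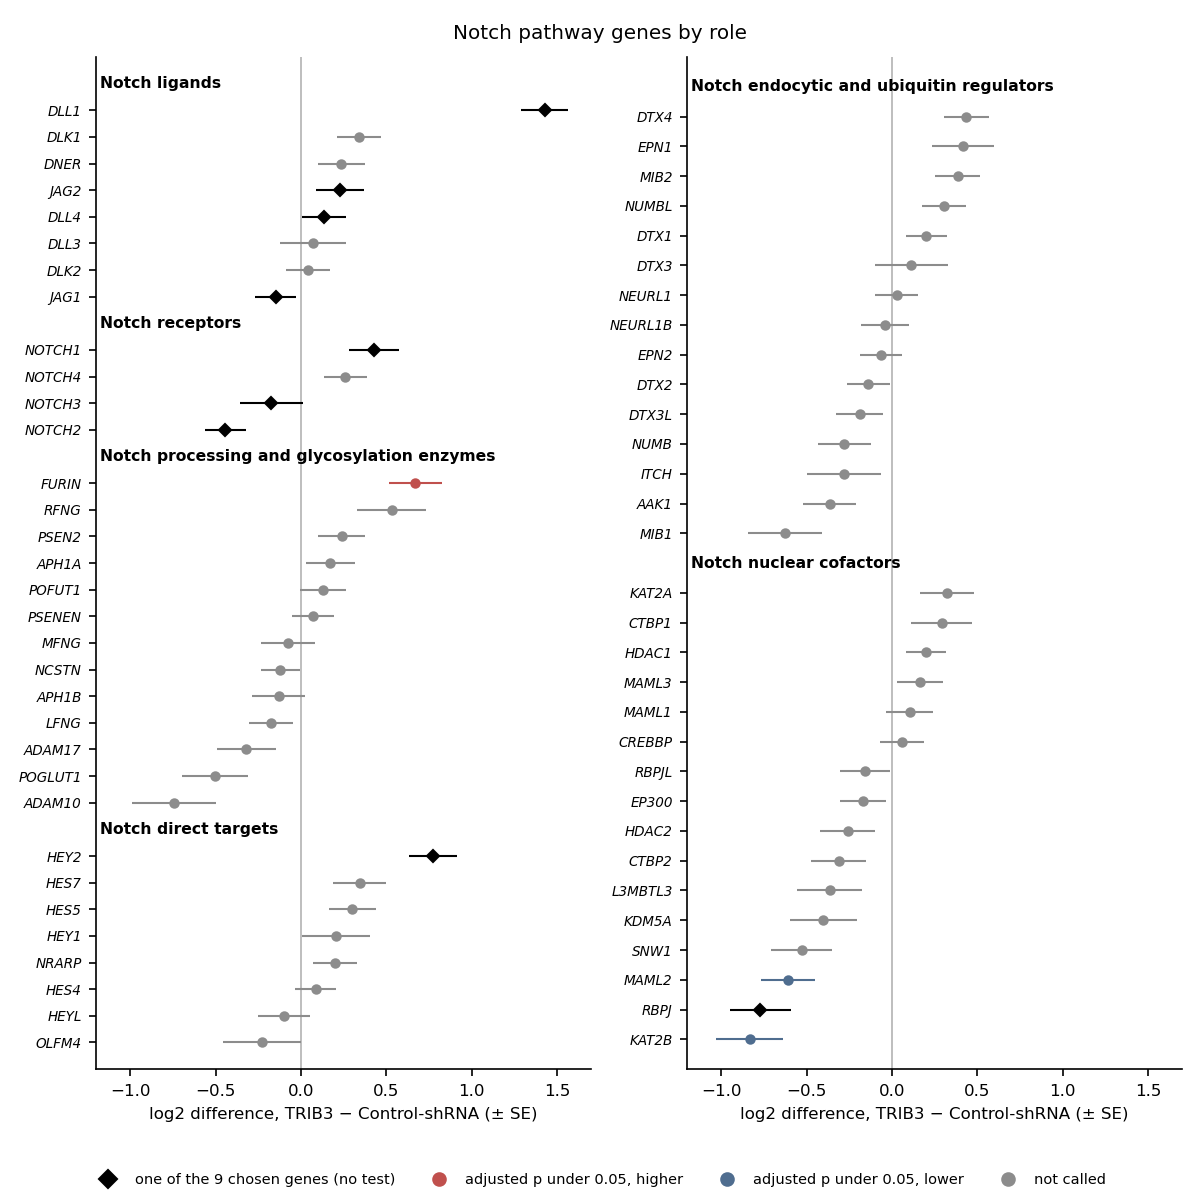
Log2 difference, TRIB3-shRNA minus Control-shRNA (horizontal axis, point with SE of the fit), of the 64 measured Notch pathway genes, grouped by role. Black diamonds are the 9 chosen genes, coloured points are FURIN (higher) and KAT2B and MAML2 (lower), and grey points did not pass an adjusted p of 0.05.

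The span of a gene on the genome moved with these values. Of the 64 measured Notch genes, 15 span over 100 kb, and 12 of them were lower, with a median of -0.36. The other 49 had a median of 0.11, with 31 higher. These counts include the genes chosen with their differences known. Without the chosen genes, 10 of 13 genes over 100 kb were lower, with a median of -0.36. Of the other 42, 26 were higher, with a median of 0.09. RBPJ spans 330 kb, NOTCH2 158 kb, KAT2B 114 kb and MAML2 367 kb, while DLL1 spans 8.87 kb and HEY2 11.6 kb. The 3 genes over 100 kb that were higher were MAML3 (437 kb, 0.17), DNER (357 kb, 0.24) and CREBBP (156 kb, 0.06). MAML3 is the longest of the 64 genes. Over all genes the median difference was 0.11 under 10 kb, -0.05 from 30 to 100 kb, -0.09 from 100 to 300 kb and -0.02 above 300 kb. With each array's trend against span removed, the differences were 1.34 for DLL1, 0.70 for HEY2, -0.66 for RBPJ and -0.30 for NOTCH2, against 1.43, 0.77, -0.77 and -0.44 before. The cofactor list then had a median of -0.19 and the target list 0.10, with RBPJ and HEY2 still included.

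**Figure D4:**
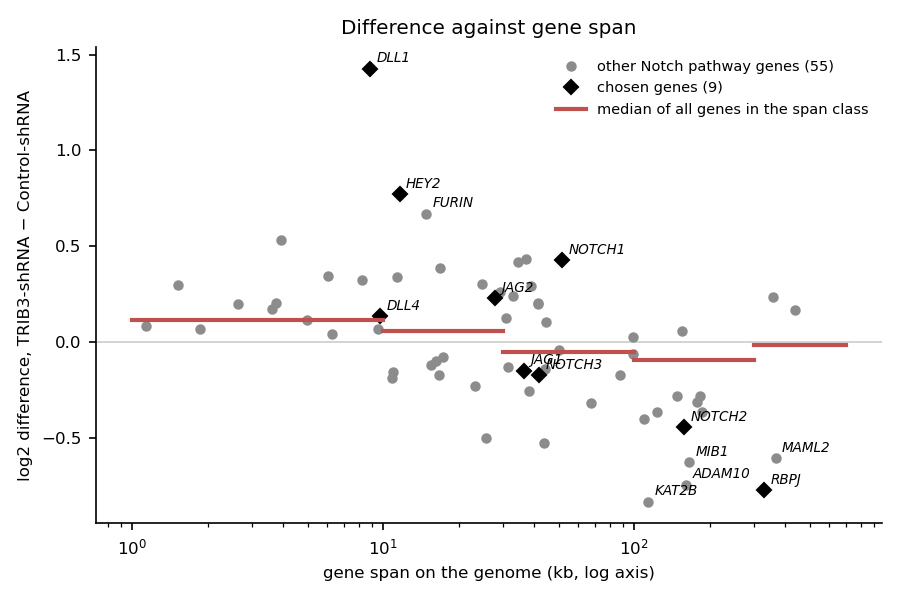
Log2 difference, TRIB3-shRNA minus Control-shRNA (vertical axis), against the span of each gene on the genome (horizontal log axis, kb) for the 9 chosen genes (black diamonds) and 55 other Notch pathway genes (grey), with the median of all genes in 5 span classes as red lines. RBPJ (-0.77), KAT2B (-0.83) and MAML2 (-0.61) lie far to the right and below the median of their class, and DLL1 (1.43) and HEY2 (0.77) to the left and above it. MAML3 (0.17) and DNER (0.24) also lie far to the right, but above the median of their class.

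The arrays numbered 3 lay near each other for RBPJ but not for DLL1 or HEY2. For RBPJ the same-numbered arrays differed by -1.17, -0.92 and -0.22. For DLL1 they differed by 1.30, 1.61 and 1.38, and for HEY2 by 0.52, 1.04 and 0.76, so the arrays numbered 3 were not the nearest pair there. The spread of each array over all genes also differed. Its SD was 1.90, 1.91 and 1.94 on the arrays labelled TRIB3-shRNA, against 2.00, 1.98 and 1.95 on the control arrays. The 75th percentiles were 7.05, 7.08 and 7.15, against 7.24, 7.20 and 7.15. In both measures the arrays numbered 3 were the nearest pair, and whether RBPJ follows this spread was not tested. The labels do not say whether the numbers pair the arrays. Among 6852 protein-coding genes above the median level and outside the Notch lists, the patterns most like DLL1 over the 6 arrays were those of DUSP4, a phosphatase of MAP kinases (Pearson r = 0.9994), TMEM45B (0.998) and the translation factor gene EIF4H (0.997). Those most like HEY2 were FAAP24 (0.996), RRP1B (0.993) and HNRNPAB (0.991). EIF4H and the 3 genes most like HEY2 shared the profile but not its size, with differences of 0.17, 0.17, 0.17 and 0.21 that did not pass the limma test (adjusted p from 0.276 to 0.372). Those most like RBPJ were TOP2A, which untangles DNA in dividing cells (0.9999), SDAD1 (0.9997) and DDHD1 (0.9995). A pattern with r over 0.95 was shared with RBPJ by 1068 of these genes, with DLL1 by 205 and with HEY2 by 90. These correlations rest on 6 arrays in 2 groups and describe the likeness of profiles only.

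Genes of the secretory and absorptive lineages, on whose balance Notch acts in the intestine, were taken from lists. These lists were set with earlier results of these data known, so the shares called are a description only. Over all genes 9.64% were called, 3.25% higher and 6.39% lower. Of 20 measured secretory genes 3 rose and 0 fell (limma, 15.0% called), and the list's median was 0.16. These were SOX4 (0.54), FOXA2 (0.58) and KLF4 (0.64), transcription factors with limma adjusted p of 0.0368, 0.0303 and 0.0337, whose calls were each lost without replicate 1 or 2 of either group, with the replicate block and over all features. With the span trend removed SOX4 also lost its call (limma adjusted p = 0.0667), and the list then held 2 higher and 1 lower call. ATOH1, the factor that Notch represses and that sets the secretory fate, read 5.18, 5.45 and 5.24 on the arrays labelled TRIB3-shRNA, against 5.18, 5.38 and 5.80 on the control arrays. The groups overlapped, and its difference of -0.17 (SE 0.18) did not pass the test (limma adjusted p = 0.566); it was named for its role. In all, 13 of the 20 secretory genes were higher and 7 lower, whatever the size. FOXA1, a relative of FOXA2 named after its value was seen, had the most negative difference at -0.41 (limma adjusted p = 0.0587), with groups that did not overlap, and was the lower call with the span trend removed. Of 15 measured absorptive genes 2 rose and 0 fell (13.3%), the keratin gene KRT20 (2.27, limma adjusted p = 0.000444) and the homeobox gene CDX1 (0.69, limma adjusted p = 0.0372), with a median of 0.18. KRT20 was called in all 19 other settings, and CDX1 was lost in 6, without replicate 1 or 2 of either group among them.

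**Figure D5:**
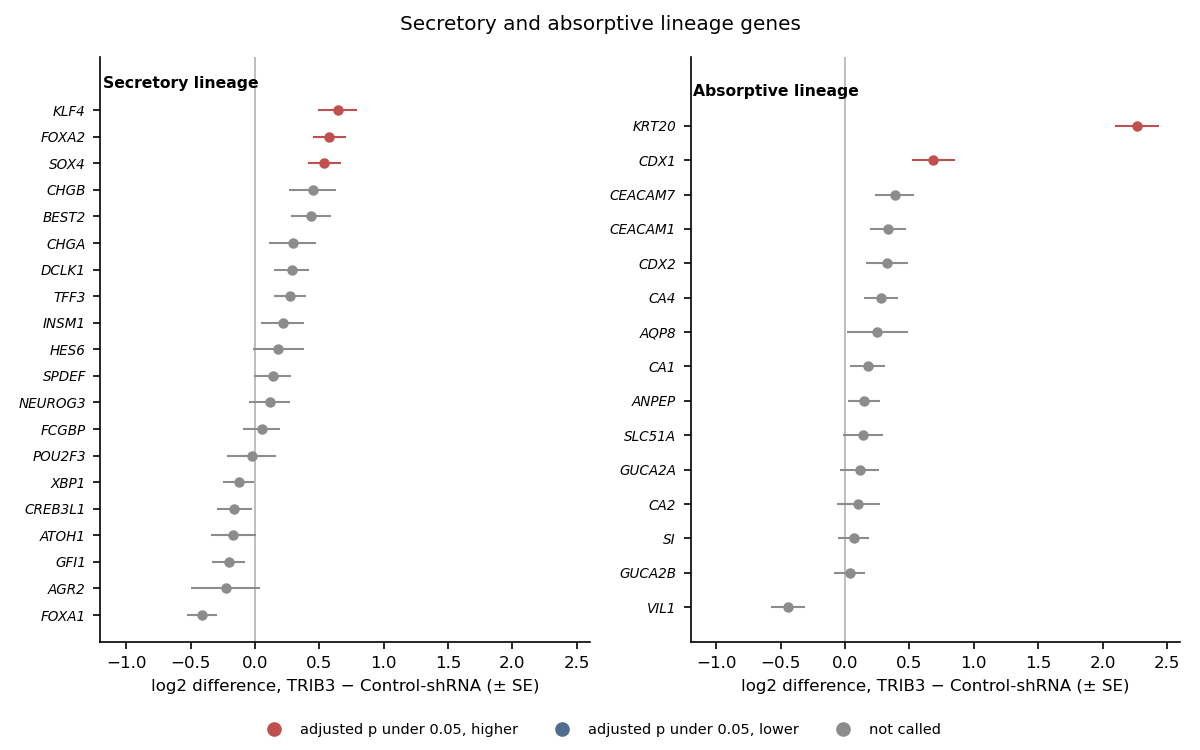
Log2 difference, TRIB3-shRNA minus Control-shRNA (horizontal axis, point with SE of the fit), of the 20 measured secretory and 15 measured absorptive lineage genes. The 3 red points at left are KLF4, FOXA2 and SOX4, those at right are KRT20 and CDX1, and grey points, ATOH1 among them at -0.17, did not pass an adjusted p of 0.05.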

How the data were processed

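Total RNA of HCT-8 cells was hybridised to 6 Affymetrix arrays, 3 per group. The deposited log2 values come from the authors' RMA run (Affymetrix Expression Console 1.4.1, as the submitters' processing notes list). RMA removes background, matches the arrays' distributions and sums up each probe set. Over the genes kept here the arrays still differed in spread, with an SD from 1.90 to 2.00. Their range shows a log2 scale; the array annotation's build was not given. Of 53617 features, 16098 had 1 gene symbol, 0 several and 37519 none. All 16098 matched a RefSeq table of GRCh38.p14 by gene identifier. The brightest feature was kept for the 779 genes with several, leaving 14884.

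The comparison used R 4.3.3 and limma 3.58.1 (lmFit and eBayes, two-sided, with no term but the group), adjusted by Benjamini-Hochberg over all genes, and the steps were tested on simulated data. Tables and figures were made with Python 3.11.15. The chosen genes and the lists were set with earlier results of these data known. Genes named were the chosen ones, all measured ligands, receptors and targets, called genes of the other lists or else the 2 with the smallest adjusted p, and the 3 genes most like DLL1, HEY2 and RBPJ by Pearson r. Alternatives were leaving out arrays, a replicate block, quantile normalization, median or 75th percentile centring, filters at the 25th and 50th percentile, an intensity trend, robust fitting, array weights, feature means and all features. Removal of the span trend (lowess, span 0.3) was chosen after seeing the data. Sequences were matched by symbol to RefSeq promoter windows for 9 of the 10 genes.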

Additional observations from a re-analysis of the deposited data

How the results depend on the processing

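The differences of DLL1 and HEY2 moved by less than the spread between replicates in all 19 settings, and that of RBPJ in 18 of 19. Not all of these settings could move them. The replicate block, the filters, the intensity trend, robust fitting, feature means and all features leave the difference of a gene with 1 feature unchanged. Leaving out arrays gave 1.32 to 1.51 for DLL1, 0.67 to 0.88 for HEY2 and -1.05 to -0.64 for RBPJ. No chosen gene changed sign in a setting run. Adjusted p-values of the chosen genes in these settings were not analysed, so the calls of DLL1 and HEY2 are not shown to hold. For RBPJ the SE was 0.21 with the replicate block, against 0.18 without it. KAT2B, close to RBPJ with all arrays (limma adjusted p = 0.0335 and 0.0326), lost its call with that block (limma adjusted p = 0.0739). In that fit RBPJ had the smaller difference, -0.77 against -0.83 for KAT2B, at the same SE of 0.21. The call of RBPJ was therefore lost there too. The count of other Notch pathway genes called by limma, 3 of 55, ran from 0 to 16 when arrays were left out, was 0 with the replicate block (10 at an unadjusted p under 0.05) and with all features (11 unadjusted), and was 15 with array weights. The count over all genes, 1435, ran from 199 to 3392 when arrays were left out, and was 402 with the replicate block, 388 with all features and 4099 with array weights. At an unadjusted p under 0.05 in limma it was 3303 with the replicate block and 3729 with all features. Same-numbered arrays did not deviate together (correlations of -0.20, -0.09 and -0.43), and pairs with different numbers ran from -0.23 to 0.33. The labels state no pairing, and these correlations cannot settle whether there was one. All features raise the number of tests, and the cause of the other shifts was not tested. Signal over background was not analysed here, which limits the dim features of MAML2, HEY1, OLFM4 and DNER.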

Other observations

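The genes that flank DLL1, HEY2 and RBPJ on the chromosome were read as a further description. Up to 5 measured protein-coding genes on each side were taken in RefSeq order. Over all genes 9.64% were called, and 4283 of 14884 had an unadjusted p under 0.05 in limma. Of the 8 near DLL1 on chromosome 6, 1 passed the limma test: ERMARD, its nearest measured neighbour on that side, fell by 0.83 on the log2 scale (limma adjusted p = 0.0152), opposite to DLL1. The others ran from -0.28 (THBS2) to 0.30 (PDCD2), and the median of the 8 was 0.03. Of the 10 near HEY2, also on chromosome 6, 0 passed the limma test (4 at an unadjusted p under 0.05) and 8 were lower, with a median of -0.17 and NCOA7 lowest at -1.02 (limma adjusted p = 0.0802). Of the 10 near RBPJ on chromosome 4, 0 passed it (4 at an unadjusted p under 0.05) and 7 were lower, with a median of -0.15 and PI4K2B lowest at -0.67 (limma adjusted p = 0.054). These neighbours were chosen after seeing the data.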
